A study of Mus musculus with 12 samples.

Results

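The genes described here are 10 pluripotency factors, of 26219 genes in the deposited table: Pou5f1, Sox2, Nanog, Klf4, Esrrb, Lin28a, Utf1, Tcl1, Myc and Mycn. They were taken by symbol, and all 10 were found. Their transcript levels were measured in cultured mouse spermatogonial stem cells. RNA came from 6 lines with 2 culture replicates each, which gives 12 libraries. Germline stem cells (GSCs) were established as lines GSC_1 and GSC_2 from separate testes, taken 7 days after birth. The other 4 lines, GSCLC_1 to GSCLC_4, hold so-called germline stem cell-like cells (GSCLCs) established from reconstituted testes, in a series titled for the derivation of such cells from pluripotent stem cells. For GSCLC_1 and GSCLC_4 the testes spent 3 weeks at 34°C (condition 1). For GSCLC_2 and GSCLC_3 they spent 2 weeks at 37°C followed by 1 week at 34°C (condition 2). All 6 lines share the C57BL/6 x 129/SvJcl background, the AcrAct_EGFP reporter and one StemPro-34 medium with 1% FBS, 10 ng/ml GDNF, 10 ng/ml bFGF, LIF and EGF. Every GSC line came from a postnatal and every GSCLC line from a reconstituted testis, so effects of the cells and of their source cannot be told apart. The sources used here do not say whether the GSCLC lines share a parental pluripotent line, and the p-values assume that the lines are independent.

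Pluripotency rests on a small circuit of transcription factors. Pou5f1 (OCT4) and SOX2 bind DNA together at composite elements, and with NANOG they maintain each other's expression in embryonic stem cells. KLF4 and ESRRB belong to the naive layer of the circuit, which LIF supports. In mice, germ cells re-express several of these factors as primordial germ cells. Cultured spermatogonial stem cells keep some of the transcripts without being pluripotent.

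Libraries were made by SC3-seq, which sequences the 3′ ends of amplified cDNA, here from 1 ng of total RNA. Levels are in RPM (reads scaled to one library total), and since 3′ end yield differs between genes, they are compared between libraries and not between genes. The smallest steps of the RPM values imply 3031704 to 4644184 reads per library, and 1 read is worth 0.215 to 0.33 RPM. Summed levels of 15 spermatogonial stem cell markers were 2684 to 3145 RPM in GSC and 2261 to 2812 RPM in GSCLC libraries. A sum of 10 germ cell markers came to 2516 to 2946 and 2392 to 3118 RPM. Abundant genes weigh most in such sums. Among the stem cell markers, Uchl1 had 637 to 1254 RPM and Cdh1 0 to 2.00 RPM over the libraries. In bulk RNA, fewer cells with a transcript and less transcript per cell cannot be told apart.

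Of the 10 factors, 9 reached 5 RPM in at least 2 libraries and were tested, among 11788 genes. Nanog did not. Pou5f1 reached 5 RPM in 4 GSC and 3 GSCLC libraries, so either kind of line alone met the filter. Those GSCLC libraries were all of condition 1, and no condition 2 library reached 5 RPM.

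The promoters of 4 factors are shown: those of the core trio Pou5f1, Sox2 and Nanog, and that of Tcl1, which with Pou5f1 fell in GSCLC lines. Each run is the 250 bases before the annotated start, 5′ to 3′ on the gene's strand, from RefSeq on GRCm38.p6. Capitals mark matches, on either strand, to 5 motifs: the composite OCT-SOX element (in the Nanog run below, searched with any base as the eighth letter), the octamer core ATGCAAA (which overlaps the composite), the GC box GGGCGG, the nuclear receptor half-site AGGTCA and the E-box CACGTG. The Pou5f1 promoter is chr17:35505782-35506031 on the plus strand, that of Sox2 chr3:34649745-34649994 on the plus strand, that of Nanog chr6:122707239-122707488 on the plus strand, and that of Tcl1 chr12:105222738-105222987 on the minus strand.
Pou5f1: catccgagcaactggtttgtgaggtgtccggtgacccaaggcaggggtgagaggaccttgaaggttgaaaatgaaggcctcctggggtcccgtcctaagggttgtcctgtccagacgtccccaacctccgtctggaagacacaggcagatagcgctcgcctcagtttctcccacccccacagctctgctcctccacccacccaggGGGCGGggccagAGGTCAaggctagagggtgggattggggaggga
Sox2: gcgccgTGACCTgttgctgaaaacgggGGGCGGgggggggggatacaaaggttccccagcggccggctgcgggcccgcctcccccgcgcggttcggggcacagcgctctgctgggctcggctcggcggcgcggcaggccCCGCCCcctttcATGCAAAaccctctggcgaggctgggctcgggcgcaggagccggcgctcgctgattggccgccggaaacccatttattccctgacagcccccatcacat
Nanog: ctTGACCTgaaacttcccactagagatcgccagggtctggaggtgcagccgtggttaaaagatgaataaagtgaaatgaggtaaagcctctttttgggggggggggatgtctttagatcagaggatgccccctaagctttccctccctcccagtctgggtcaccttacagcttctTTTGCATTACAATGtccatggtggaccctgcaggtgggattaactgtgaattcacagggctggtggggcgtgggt
Tcl1: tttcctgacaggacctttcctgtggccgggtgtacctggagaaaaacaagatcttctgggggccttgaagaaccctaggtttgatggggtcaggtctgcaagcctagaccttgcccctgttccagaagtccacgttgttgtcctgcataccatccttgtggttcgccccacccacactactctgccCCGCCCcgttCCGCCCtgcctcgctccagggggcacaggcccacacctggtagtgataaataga

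Nanog, whose transcripts were at the limit of detection in every line, holds the composite element, which begins 75 bases before the start. The letters searched follow the Nanog element itself, so its match was fixed by the search, and of all 27025 promoters of that length 1 (0.0037%), that of Nanog, held them. The Pou5f1 window has a GC box at 45 and a nuclear receptor half-site at 33 bases before the start. Sox2 has GC boxes at 223 and 111, an octamer core at 99 and a half-site at 244 bases before the start. Tcl1 has GC boxes at 64 and 54 bases and no match to the other 4 motifs. Of 9 factors with a promoter in the table, 6 held a GC box, against 33% of all promoters. The half-site was in 3 of 9, against 13.8%, the octamer core in 2, against 4.07%, and the E-box in 1, that of Klf4, against 6.04%. These matches are spellings in a short window and no measurement of binding.

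Pou5f1 (chromosome 17, 35506032 to 35510777, GRCm38), the POU factor at the centre of the circuit, fell in GSCLC lines. Its level was 35.5 and 15.9 RPM in GSC_1, 28.1 and 28.1 in GSC_2, 8.56 and 6.15 in GSCLC_1, and 4.76 and 7.92 in GSCLC_4. In the condition 2 lines it was 1.76 and 3.65 RPM in GSCLC_2, and 0.565 and 1.62 in GSCLC_3. All 8 GSCLC libraries lay below all 4 GSC libraries. Line means averaged 26.9 ± 1.65 RPM (SD, n = 2) in GSC and 4.37 ± 2.96 RPM (n = 4) in GSCLC lines, which is 6.15-fold lower. The difference on the log2(RPM + 1) scale, which understates changes of low genes, was -2.56 ± 0.49 (SE), with an adjusted p of 0.019 in limma with Benjamini-Hochberg adjustment over all genes tested.

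Tcl1 (chromosome 12, 105216753 to 105222737), an activator of AKT kinases known in embryonic stem cells as a target of OCT4, was the second factor that fell. The GSC_1 libraries had 166 and 156 RPM and the GSC_2 libraries 227 and 229 RPM. Levels were 85.0 and 83.0 RPM in GSCLC_1, 74.0 and 73.3 in GSCLC_2, 43.3 and 43.7 in GSCLC_3, and 57.4 and 60.0 in GSCLC_4. Again no GSCLC library reached a GSC library, and both libraries of each line lay close together. The means were 194 ± 47.0 RPM in GSC lines and 64.9 ± 17.7 RPM in GSCLC lines, 3.00-fold lower, with a log2 difference of -1.59 ± 0.23 and an adjusted p of 0.00547.

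Thus 2 of 9 tested factors were lower and 0 higher, where 213 (1.81%) of all tested genes were lower and 143 (1.21%) higher, and 3.02% passed in either direction. Line means of the kinds did not overlap for 28.6% of the tested genes, and 14.8% of the tested genes had every GSCLC line lower, among them 2 of the 9 factors, Pou5f1 and Tcl1. Both calls held without any single library, with adjusted p of 0.00858 to 0.0384 for Pou5f1 and 0.00322 to 0.0128 for Tcl1. The call for Pou5f1 was lost with no filter on low values (adjusted p 0.0857), with one common prior variance (0.0657), and without line GSC_1 (0.162) or GSC_2 (0.258), and that for Tcl1 only without GSC_2 (0.141), among 28 alternatives each. In those last fits a single GSC line is assumed to vary like the others. Replicate 1 libraries alone gave -3.05 (adjusted p 0.0329) for Pou5f1 and -1.61 (0.00933) for Tcl1, and replicate 2 libraries alone -2.07 (0.0453) and -1.56 (0.00662).

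**Figure D1:**
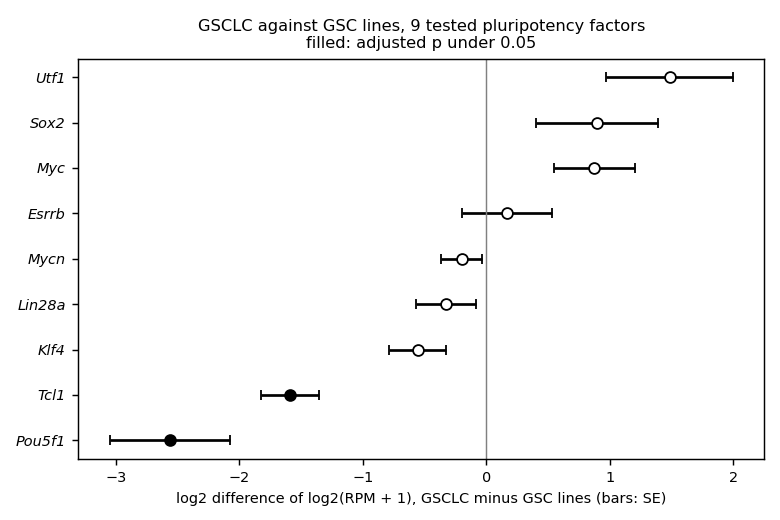
Log2 differences of log2(RPM + 1) between the 4 GSCLC and 2 GSC lines for the 9 tested factors (x axis), with bars of 1 SE and filled points for an adjusted p under 0.05. Pou5f1 at -2.56 and Tcl1 at -1.59 are filled, and the other 7 points are open.

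Markers of other cell types were summed too. Leydig cell sums were apart between the kinds of line, and macrophage and endothelium sums only just so, while fibroblast and Sertoli cell sums overlapped. Leydig cell markers, 7 genes of the testosterone-producing cells, summed to 75.6 and 109 RPM in the GSC libraries numbered replicate 1 and to 12.1 and 11.7 RPM in replicate 2, against 3.99 to 8.44 RPM in GSCLC libraries. Among these genes, Cyp17a1 and Lhcgr were listed at 0 in every library, and Nr5a1 reached 0.27 RPM at most. The highest library values of the others were 60.1 RPM for Cyp11a1, 36.7 for Hsd3b1, 11.3 for Star and 6.77 for Insl3. The 20 fibroblast and feeder markers summed to 626 to 1338 RPM in GSC, highest in GSC_2 with 1210 and 1338 RPM, and to 487 to 837 RPM in GSCLC libraries. The 9 macrophage and endothelium markers summed to 23.47 to 36.74 RPM in GSC and 8.895 to 23.46 RPM in GSCLC libraries. The 10 Sertoli cell markers, of which Amh was listed at 0 throughout, summed to 36.8 to 145 RPM and 23.7 to 122 RPM. The part of any of these 4 marker groups in the differences was not tested. Gm19553, which overlaps the 3′ end of Pou5f1 on the opposite strand, was listed at 0.326 RPM in 1 GSC_1 library, 0.51 RPM in 1 GSC_2 library and 0 in the other 10.

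Sox2 (chromosome 3, 34649995 to 34652461), the HMG-box partner of OCT4, did not follow Pou5f1. It stood at 35.5 and 37.9 RPM in GSC_1 and at 30.3 and 30.6 RPM in GSC_2. In condition 1 it was 118 and 92.2 RPM in GSCLC_1 and 57.6 and 50.1 RPM in GSCLC_4. In condition 2 it was 22.3 and 23.7 RPM in GSCLC_2 and 113 and 128 RPM in GSCLC_3. GSCLC_1, GSCLC_3 and GSCLC_4 lay above both GSC lines, and GSCLC_2 lay below both. The mean over GSCLC lines was 75.7 ± 45.2 RPM against 33.6 ± 4.43 RPM in GSC lines, and the log2 difference of 0.90 ± 0.49 did not pass (adjusted p 0.39). Without GSCLC_2, the line below both GSC lines, the difference was 1.37 (adjusted p 0.0456), and Sox2 passed in this 1 of 28 alternatives.

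GSCLC_3 thus had the highest Sox2 mean, 121 RPM, and the lowest Pou5f1 mean, 1.09 RPM. GSCLC_2 had 23.0 RPM of Sox2 and 2.70 RPM of Pou5f1, the lowest and second-lowest line means. The Pou5f1 level in the libraries of GSCLC_3 rested on 2 and 6 reads, with exact Poisson 95% limits of 0.0685 to 2.04 and 0.594 to 3.52 RPM. In the GSC_1 libraries it rested on 109 and 74 reads. Limits of 29.2 to 42.9 and 12.5 to 20.0 RPM show that these GSC_1 libraries differed by more than counting error. Such limits cover counting error only, since amplified reads are not independent molecules.

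**Figure D2:**
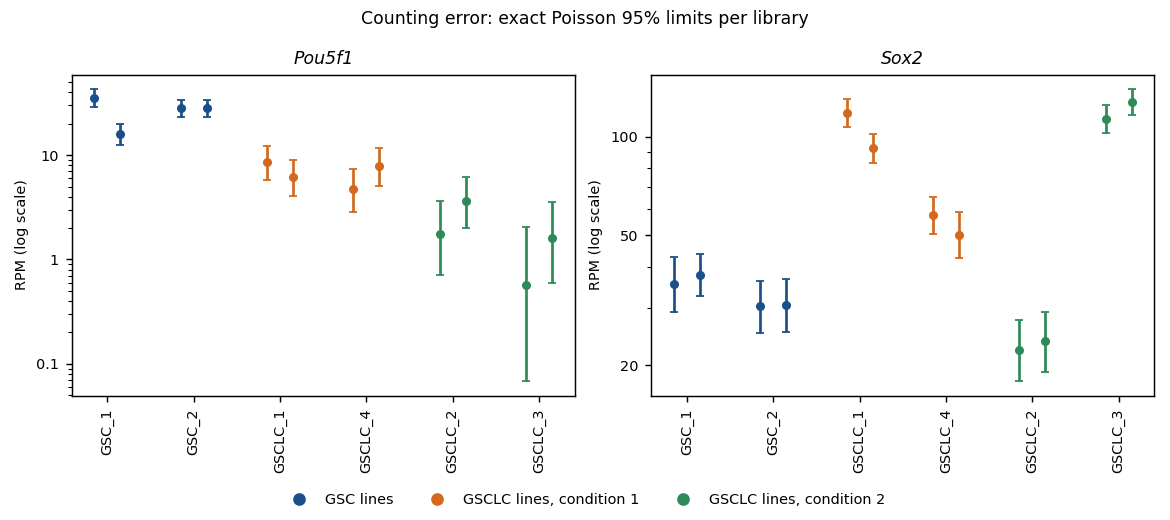
RPM of Pou5f1 (left) and Sox2 (right) per library on log axes, with exact Poisson 95% limits from the implied reads, coloured by GSC, condition 1 and condition 2. The upper Pou5f1 limits of the GSCLC libraries reach 12.2 RPM, just under the lowest GSC limit of 12.5 RPM, while the Sox2 limits of GSCLC_2 lie below those of the other GSCLC lines.

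Nanog (chromosome 6, 122707489 to 122714633), the homeobox factor of the naive state, was not detectable as a level at this depth. A library of GSC_1 had 0.326 RPM, and single libraries of GSCLC_2, GSCLC_3 and GSCLC_4 had 0.251, 0.283 and 0.25 RPM. Each of these values is 1 read. The other 8 libraries were listed at 0, for which exact Poisson 95% limits reach 0.794 to 1.22 RPM. No fold change is given, because both kinds of line lie under those limits.

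Klf4 (chromosome 4, 55527137 to 55532475), a zinc-finger factor of the reprogramming set, was 43.4 and 47.2 RPM in GSC_1 and 71.9 and 68.6 RPM in GSC_2. The GSCLC libraries ran from 24.5 RPM in GSCLC_1 to 54.3 RPM in GSCLC_2, with a median of 38.8 RPM. They overlapped GSC_1 and stayed under GSC_2. The difference of -0.56 ± 0.23 did not pass (adjusted p 0.235).

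Esrrb (chromosome 12, 86361117 to 86521628), an orphan nuclear receptor, was low in every line, with 3.06 to 6.24 RPM in GSC and 2.51 to 8.27 RPM in GSCLC libraries. Those ranges overlap, and the difference of 0.17 ± 0.36 did not pass (adjusted p 0.858). At 10 to 32 reads per library, the depth limits what could be seen for this gene.

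Utf1 (chromosome 7, 139943856 to 139945112), a chromatin-associated factor also known from undifferentiated spermatogonia, varied most between the 2 GSC lines. It was 21.2 and 31.4 RPM in GSC_1 but 6.89 and 7.14 RPM in GSC_2. The GSCLC libraries had 26.5 and 25.3 RPM in GSCLC_1, 93.5 and 71.2 in GSCLC_2, 33.6 and 15.1 in GSCLC_3, and 58.9 and 47.5 in GSCLC_4. GSCLC_2 and GSCLC_4 lay above every GSC library, whereas GSCLC_1 and GSCLC_3 overlapped GSC_1. The kinds of line differed by 1.48 ± 0.51 without passing (adjusted p 0.163), at means of 16.7 ± 13.6 RPM in GSC lines and 46.5 ± 27.3 RPM in GSCLC lines. With the 12 libraries fitted singly and line as a random effect it passed (adjusted p 0.0443), in 1 of 28 alternatives. That fit uses a common within-line correlation for all genes, so it does not follow the spread of Utf1 itself between lines.

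Between the GSC lines, Utf1 was the 1 factor of 9 that differed, lower in GSC_2 with a log2 difference of -1.74 ± 0.30 (adjusted p 0.0236). Over all genes 6 (0.0509%) differed, and 2 (0.017%) were lower in GSC_2. That p rests on the spread between culture replicates and speaks for these lines only. It was lost without GSC_1 replicate 1 (adjusted p 0.0737) or replicate 2 (0.461), without GSC_2 replicate 1 (0.218) or replicate 2 (0.351), with a pseudocount of 5 (0.053), with no filter (0.279) and with one common prior variance (0.326).

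Lin28a (chromosome 4, 134003330 to 134019196), the RNA-binding protein that blocks let-7 maturation, was 19.9 and 18.5 RPM in GSC_1 and 13.8 and 16.3 RPM in GSC_2. GSCLC libraries spread from 8.87 to 23.4 RPM around a median of 13.1 RPM, across the GSC range. The difference was -0.33 ± 0.24 (adjusted p 0.54).

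The paralogous MYC factors, which drive growth and metabolic genes as partners of MAX, were both present. Myc (chromosome 15, 61985341 to 61990361) had 13.7 and 18.3 RPM in GSC_1 and 10.1 and 7.65 RPM in GSC_2. It had 23.7 and 39.2 RPM in GSCLC_1, 26.8 and 31.6 in GSCLC_2, 31.9 and 14.3 in GSCLC_3, and 12.02 and 14.84 in GSCLC_4. GSCLC_4 sat inside the GSC range and the other 3 lines had means above it. The difference of 0.87 ± 0.33 did not pass (adjusted p 0.201).

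Mycn (chromosome 12, 12936093 to 12941836) had the narrowest range of line means, 45.3 to 67.9 RPM, or 1.499-fold. Its libraries lay at 51.0 to 75.3 RPM in GSC and 41.0 to 79.2 RPM in GSCLC lines. The lowest and highest GSCLC values enclose those of the GSC libraries. The difference was -0.20 ± 0.17 (adjusted p 0.593).

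**Figure D3:**
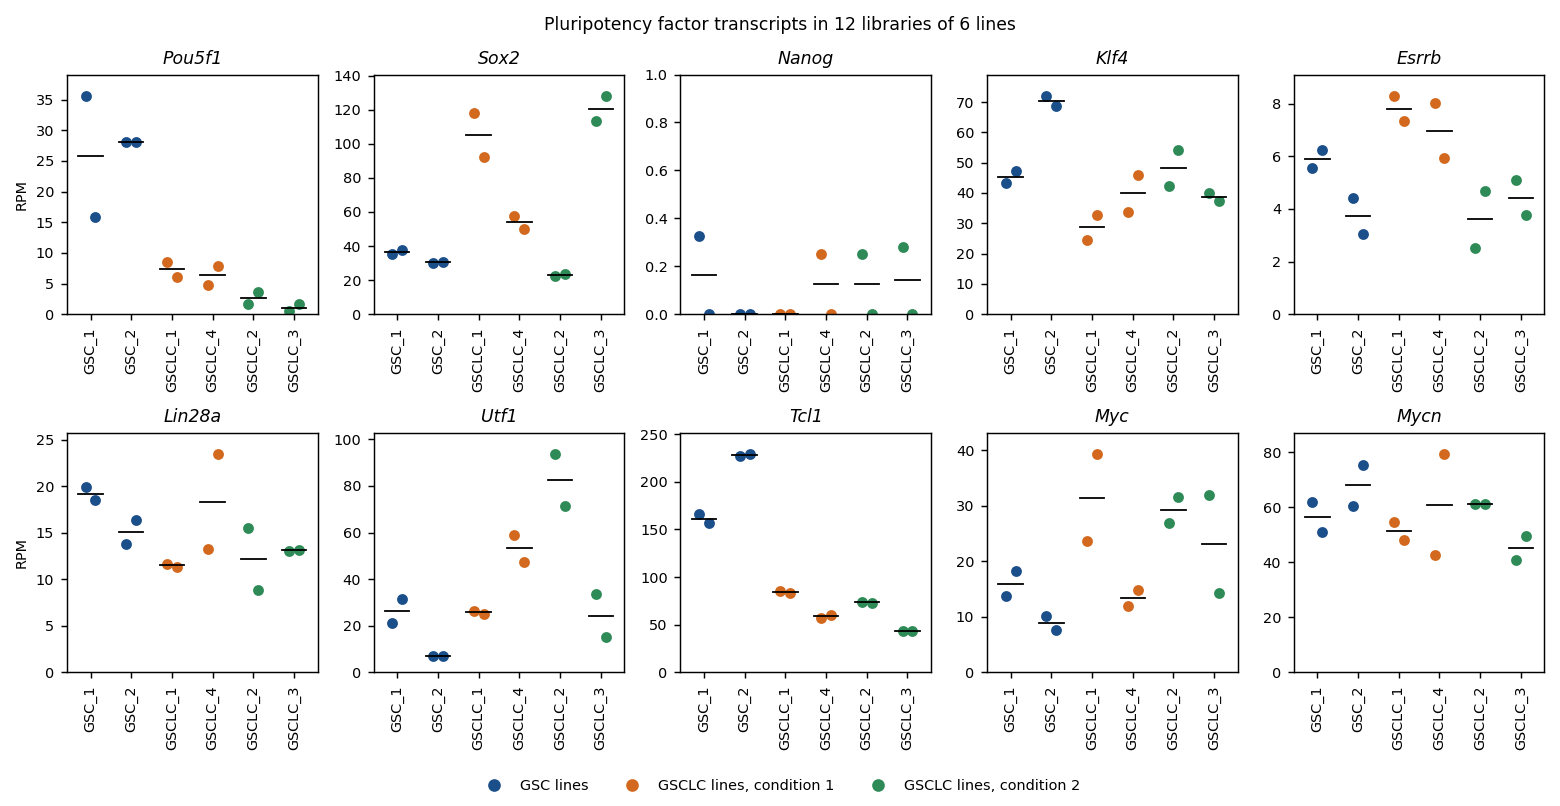
RPM of each of the 10 factors (y axis, linear from 0) in the 2 libraries of every line (points) with the line mean (bar), coloured by GSC, condition 1 and condition 2. Pou5f1 and Tcl1 are lower in all 8 GSCLC libraries, Sox2 spans 22.3 to 128 RPM across GSCLC libraries, and Nanog stays at or below 0.326 RPM.

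The 4 GSCLC lines were then compared with each other. A moderated F test over libraries found differences in 4 of 9 factors, against 9.14% of all tested genes, and these p-values rest on culture replicates. Sox2 gave F = 64.8 (adjusted p 2.83e-07), Utf1 16.5 (0.00127), Tcl1 14.9 (0.00197) and Pou5f1 9.66 (0.0113). The highest over the lowest GSCLC line mean was 5.24-fold for Sox2, 3.38-fold for Utf1, 1.93-fold for Tcl1 and 6.74-fold for Pou5f1. For Pou5f1 the call was lost without GSCLC_3 replicate 1 (adjusted p 0.0621), with no filter (0.094) and with one common prior variance (0.0553). Myc missed the threshold (adjusted p 0.08), and passed without GSCLC_3 replicate 1 (0.0325) or replicate 2 (0.0403). Klf4, Esrrb, Lin28a and Mycn did not pass, with adjusted p of 0.113, 0.234, 0.464 and 0.474.

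Each of the 15 pairs of lines was also tested, with p-values adjusted over all genes and pairs. Error in these tests was gauged from repeat cultures within lines, so the calls speak for these 6 lines and not for kinds of line. Of all such combinations, 5.33% passed. From low to high, the Pou5f1 line means were 1.09 RPM in GSCLC_3, 2.70 in GSCLC_2, 6.34 in GSCLC_4, 7.35 in GSCLC_1, 25.7 in GSC_1 and 28.1 in GSC_2. The one pair of neighbours in that order that differed was GSCLC_1 and GSC_1 (adjusted p 0.034). GSCLC_3 was also below GSCLC_1 (0.00788) and GSCLC_4 (0.0156).

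For Tcl1 the order ran GSCLC_3, GSCLC_4, GSCLC_2, GSCLC_1, GSC_1 and GSC_2, at 43.5, 58.7, 73.6, 84.0, 161 and 228 RPM. The step from GSCLC_1 to GSC_1 was again the neighbour pair that passed (adjusted p 0.000886). GSCLC_3 was below GSCLC_1 (0.000864) and GSCLC_2 (0.00549). All 8 pairs of a GSC and a GSCLC line passed for Pou5f1 and for Tcl1. They reuse the same 6 lines, so they are not 8 separate tests of the kinds. The share of all tested genes with all 8 pairs passing was not counted.

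Sox2 line means ran from 23.0 RPM in GSCLC_2 through 30.4 in GSC_2, 36.7 in GSC_1 and 53.9 in GSCLC_4 to 105 in GSCLC_1 and 121 in GSCLC_3. Among neighbours, GSCLC_4 and GSCLC_1 differed (adjusted p 0.0051). In all, 11 of 15 pairs passed, and GSCLC_2 was below GSC_1 (0.0475) but did not differ from GSC_2 (0.257). Utf1 had GSC_2 lowest at 7.02 RPM, below its neighbour GSCLC_3 at 24.4 RPM (0.0038), then GSCLC_1 at 25.9, GSC_1 at 26.3, GSCLC_4 at 53.2 and GSCLC_2 at 82.4 RPM, with no other neighbours apart and 9 of 15 pairs passing.

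Klf4 passed in 4 pairs, in which GSC_2 at 70.3 RPM was above GSCLC_1 (28.7 RPM, adjusted p 0.00128), GSCLC_3 (38.8 RPM, 0.0249) and GSCLC_4 (39.8 RPM, 0.0287), and GSCLC_1 was below GSCLC_2 (48.3 RPM, 0.0489). Myc passed in 3, with GSC_2 at 8.87 RPM below GSCLC_1 (31.5 RPM, 0.00523), GSCLC_2 (29.2 RPM, 0.007) and GSCLC_3 (23.1 RPM, 0.042). Both counts changed with the processing. That of Klf4 was 1 with no filter, with one common prior variance and without either GSC_2 library. It was 2 with quantile normalization and without either GSCLC_3 library. That of Myc was 0 with no filter and without GSC_2 replicate 2, and 1 without GSCLC_2 replicate 2. It was 5 with quantile normalization and without GSCLC_3 replicate 2. Esrrb, Lin28a and Mycn passed in none of the 15 pairs, with smallest adjusted p of 0.174, 0.229 and 0.172, and no neighbours in the Klf4 or Myc order differed.

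The series also varied the incubation of the reconstituted testes, and condition 2 was compared with condition 1 over 2 lines each. None of the 9 factors and 0 (0%) of all tested genes passed in limma, with 552 genes at an unadjusted p under 0.05. Pou5f1 was the 1 factor below that unadjusted level, with 6.85 RPM in condition 1 and 1.90 RPM in condition 2, a log2 difference of -1.51 ± 0.36, an unadjusted p of 0.00182 and an adjusted p of 0.933. All 4 condition 2 libraries lay below all 4 condition 1 libraries for Pou5f1, at 7 and 14 reads in GSCLC_2 and 2 and 6 in GSCLC_3. The share of all genes separated in this way was not counted, so the order is a description only. For Sox2, whose means were 79.5 and 71.8 RPM, the highest and the lowest line both belong to condition 2. The other log2 differences lay between -0.76 for Esrrb and 0.36 for Klf4.

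By a rule set on the correlation of log2 levels over the 12 libraries, the genes most like the 4 factors with the widest range of line means were listed, as a description without a test. The 12 libraries share lines and source, so the points are not independent. Closest to Pou5f1 were Lrp1, an endocytic receptor (Pearson's r = 0.96, 111 RPM in GSC and 59.5 in GSCLC lines), Gm5634 (0.96) and Copb2, a coat protein of Golgi vesicles (0.95). Closest to Tcl1 were Aplp1, a relative of the amyloid precursor protein (0.97, 182 against 67.7 RPM), Gm5634 (0.97) and Hoxb7, a homeobox gene (0.96, 115 against 41.8 RPM). Utf1 was most like Wt1, a zinc-finger factor of gonadal somatic cells (0.94, 3.25 against 12.4 RPM), Isy1, a splicing factor (0.93), and Exosc1, an exosome subunit (0.92). Wt1 is one of the Sertoli cell markers, whose part in the Utf1 levels was not tested. Sox2 was most like Lcp1, an actin-bundling protein (0.90), Gm8203 (0.89) and Pfkm, a phosphofructokinase (0.89).

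Genes around the circuit were read from lists, by counts and medians beside the median of -0.01 over all tested genes. For every list, the counts stand beside 1.21% of all tested genes called higher and 1.81% called lower. The lists were chosen with earlier results of these data known, so the counts are descriptions, and enrichment was not tested. In the naive network, 14 of 25 genes were tested and 0 passed, with a median of 0.04. Its most abundant tested genes were Sall4, a zinc-finger factor of germ and embryonic stem cells (123 RPM in GSC lines and 88.2 RPM in GSCLC lines, adjusted p 0.167), and Rif1 (88.1 and 97.6 RPM, adjusted p 0.595). The other 11 were too low to test. Among them, Fgf4 reached 0.326 RPM and Zscan4c 0.652 RPM at most and were at 0 in 10 libraries, Prdm14 reached 1.04 RPM and was at 0 in 9, and Nr0b1 reached 1.56 RPM and was at 0 in 10. Tdgf1 reached 4.01 RPM and Klf2 4.76 RPM.

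Genes of the primed and formative states moved both ways. Of 7 tested, 1 was higher and 3 were lower, beside 1.21% and 1.81% of all tested genes, with a median of -0.05. Sall2, a zinc-finger factor, rose from 9.58 to 40.9 RPM (log2 difference 2.06 ± 0.28, adjusted p 0.00417), a call kept without any single library and lost without line GSC_2 (0.0662). Eomes, a T-box factor, fell from 43.8 to 15.6 RPM (adjusted p 0.0239), a call lost without GSCLC_3 replicate 2 (0.208), without line GSC_1 (0.24) or GSC_2 (0.197), with replicate 1 only (0.273), with no filter (0.0913) and with one common prior variance (0.0797). In that line its libraries had 41.8 and 8.09 RPM. T (brachyury), another T-box factor, fell from 63.5 to 14.5 RPM (adjusted p 0.0453), with 58.5 and 6.74 RPM in GSCLC_3. Its call was lost without any one of GSC_2 replicate 2 (0.0583), GSCLC_1 replicate 2 (0.0506), GSCLC_2 replicate 2 (0.0557), GSCLC_3 replicate 2 (0.242), GSCLC_4 replicate 1 (0.0626) or replicate 2 (0.0586). Pou3f1, a POU factor known from undifferentiated spermatogonia, fell from 81.0 to 41.2 RPM (adjusted p 0.0339), a call lost without GSC_2 replicate 2 (0.078), GSCLC_1 replicate 2 (0.0659), GSCLC_3 replicate 2 (0.102) or GSCLC_4 replicate 2 (0.0793). Fgf5, Otx2 and Lef1 were among the genes too low to test, with Otx2 at 0.752 RPM or less.

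In the LIF and STAT3 pathway, 1 of 9 tested genes passed. Pim1, a kinase induced by STAT3, fell from 57.6 to 29.3 RPM (log2 difference -0.97 ± 0.17, adjusted p 0.0132), a call kept without any single library and lost with replicate 2 only (0.106) and without line GSC_1 (0.173) or GSC_2 (0.194). The list's median was -0.09. LIF was in the medium of all lines. Of the 14 tested genes of the AKT pathway, on which TCL1 acts, 1 passed, with a median of -0.08. Foxo3, a forkhead factor inhibited by AKT, fell from 83.4 to 51.4 RPM (adjusted p 0.0193). That call was lost without GSCLC_3 replicate 1 (0.171) or replicate 2 (0.0545), and with replicate 1 only (0.18) or replicate 2 only (0.144). Among the relatives of Tcl1, Mtcp1 was tested (10.5 and 11.5 RPM, adjusted p 0.929), and Tcl1b1 to Tcl1b5 stayed at or below 1.29 RPM, with Tcl1b3 at 0 in all libraries.

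All 16 tested MYC target genes had differences above 0 (15 with quantile normalization), as did 49.2% of all tested genes, and 2 passed in limma, both higher. The list's median was 0.14. Odc1 and Srm, enzymes of polyamine synthesis, rose from 106 to 163 RPM (adjusted p 0.0422) and from 61.7 to 98.8 RPM (0.048). Both calls depended on single libraries. Odc1 lost its call without GSC_1 replicate 2 (0.153), GSC_2 replicate 1 (0.0786), GSCLC_1 replicate 1 (0.0568), GSCLC_2 replicate 1 (0.0606), GSCLC_3 replicate 1 (0.0682), or GSCLC_4 replicate 1 (0.0534) or 2 (0.1). Srm lost it without GSC_1 replicate 1 (0.0979), GSC_2 replicate 2 (0.0672), GSCLC_1 replicate 1 (0.0792), GSCLC_2 replicate 1 (0.0985), either library of GSCLC_3 (0.0823 and 0.0669) or of GSCLC_4 (0.123 and 0.0637). In the MAX network 0 of 13 tested genes passed (median 0.03), with E2f6 at 95.9 and 84.1 RPM (adjusted p 0.586) and Max at 75.1 and 65.8 RPM (0.53).

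In the Lin28 and let-7 pathway 0 of 12 tested genes passed (median 0.05). Trim71, an RNA-binding let-7 target, had 200 RPM in GSC lines and 181 RPM in GSCLC lines (adjusted p 0.638), and Drosha, the nuclear microRNA processor, 162 and 118 RPM (0.114). Of SoxB and POU relatives 0 of 6 passed (median 0.27), with Sox3 at 23.1 and 38.5 RPM (0.6) and Pou2f1 at 48.0 and 51.4 RPM (0.9). Of Klf and Esrr relatives, 1 of 11 rose and 1 fell (median -0.12). Klf3 rose from 8.46 to 18.4 RPM (adjusted p 0.0296), lost without GSC_1 replicate 1 (0.084) or GSCLC_1 replicate 1 (0.0767). Klf10 fell from 187 to 123 RPM (adjusted p 0.0436), and 8 of the 12 single-library omissions ended the call: GSC_1 replicate 1 (0.0805), GSC_2 replicate 2 (0.0768), GSCLC_1 replicate 1 (0.0516), GSCLC_2 replicate 1 (0.0643), GSCLC_3 replicates 1 (0.096) and 2 (0.0575), and GSCLC_4 replicates 1 (0.0609) and 2 (0.0619).

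Among 12 tested repressors and chromatin enzymes linked to the silencing of Pou5f1, 0 passed (median 0.02). Dnmt1, the maintenance DNA methyltransferase, was at 314 and 283 RPM (adjusted p 0.566), and Hdac2, a histone deacetylase, at 184 and 224 RPM (0.352).

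**Figure D4:**
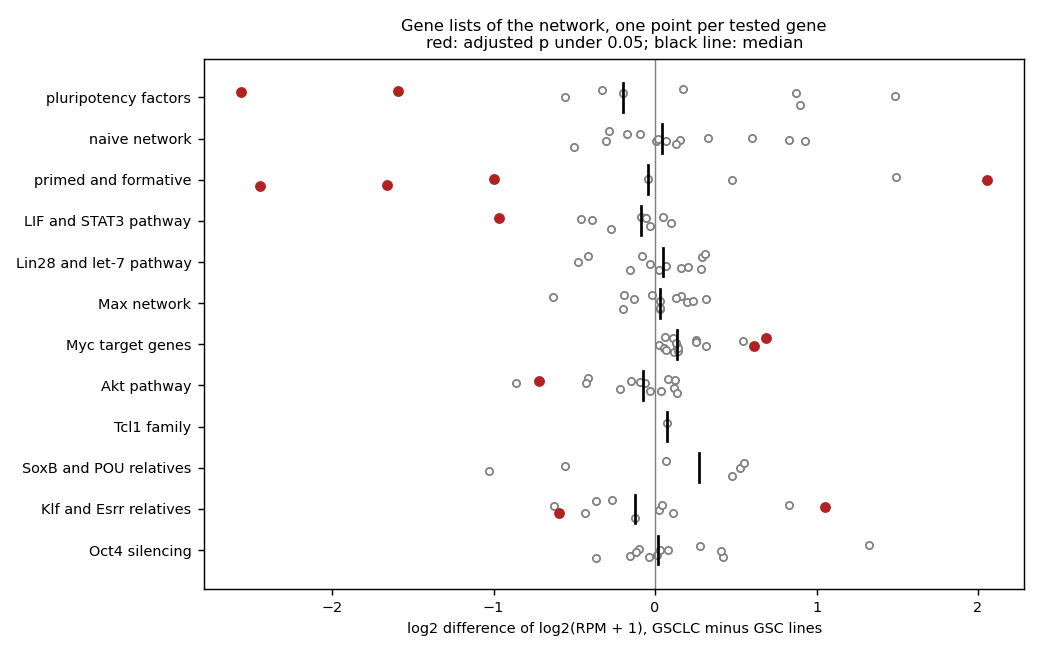
Log2 difference between GSCLC and GSC lines (x axis) of each tested gene (points) of the factors and 11 lists around them, with red points for an adjusted p under 0.05 and black lines for medians. Red points appear on both sides in the primed and formative list, from T at -2.44 to Sall2 at 2.06, and none in the naive network.

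In the marker lists, 2 of 14 tested spermatogonial stem cell genes were lower in GSCLC lines and 0 higher (median -0.40). Over all tested genes, 1.81% were lower and 1.21% higher. Bcl6b, a transcriptional repressor induced by GDNF, fell from 149 to 76.2 RPM (adjusted p 0.00451). That call was lost without GSCLC_3 replicate 2 (0.0618) and with replicate 1 only (0.148) or replicate 2 only (0.0778). Lhx1, a LIM homeobox factor also induced by GDNF, fell from 106 to 30.6 RPM (adjusted p 0.00458), a call kept without any single library and lost without line GSC_1 (0.0725) or GSC_2 (0.1). None of 9 germ cell markers passed (median 0.06), with Dazl at 1293 and 1424 RPM (0.528) and Ddx4 at 478 and 521 RPM (0.6). Of 19 tested fibroblast and feeder genes, 2 fell and 1 rose, with a median of -0.69, and 1 of the 19 had a difference above 0. Col5a1, a fibrillar collagen, fell from 72.4 to 32.4 RPM (0.00777), a call lost with replicate 1 only (0.0716) and without line GSC_1 (0.0604) or GSC_2 (0.197). Sparc fell from 130 to 58.3 RPM (0.0463), lost without GSC_1 replicate 1 (0.143), GSCLC_2 replicate 1 (0.081), GSCLC_3 replicate 1 (0.143), or GSCLC_4 replicate 1 (0.0626) or 2 (0.0665). Twist1 was the gene above 0 and rose from 38.5 to 71.3 RPM (0.0124), a call lost without GSCLC_4 replicate 1 (0.0877) and with replicate 2 only (0.431).

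Of 10 Sertoli cell markers 4 were tested, of which 3 had differences above 0 without passing and 1 fell, with a median of 0.96 over the 4. That gene, Clu, was 75.3 and 19.6 RPM in GSC_1 and 130 and 26.0 RPM in GSC_2, and fell to a mean of 14.2 RPM in GSCLC lines (adjusted p 0.0131). That call was lost without GSC_1 replicate 1 (0.118), GSC_2 replicate 1 (0.0676) or GSCLC_4 replicate 2 (0.0504). The Leydig cell enzymes also differed between GSC replicates. Hsd3b1 was 34.2 and 2.80 RPM in GSC_1 and 36.7 and 3.83 RPM in GSC_2, and was listed at 0 in all 8 GSCLC libraries. Cyp11a1 was 36.2 and 3.23 RPM in GSC_1, 60.1 and 2.30 RPM in GSC_2, and at most 0.752 RPM in GSCLC libraries. Fcer1g, of macrophages, was 4.31 to 18.9 RPM in GSC and at most 0.571 RPM in GSCLC libraries. These 3 genes reached the filter only through GSC libraries, where they are high, so their values are given without a test.

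Over 28 alternatives, the calls of the list genes held in 27 for Sall2, 26 for Lhx1, 25 for Pim1 and Col5a1, 24 for Twist1, 23 for Bcl6b, 22 for Eomes and Foxo3, and 20 for Klf3 and Clu. They held in 17 for Pou3f1, 15 for Sparc, 14 for T, 13 for Odc1, 12 for Klf10 and 10 for Srm. Either replicate alone ended the calls of Bcl6b, Foxo3, Klf10 and Odc1. Replicate 1 alone ended those of Col5a1, Eomes, Pou3f1 and T, and replicate 2 alone those of Pim1, Twist1, Klf3, Clu, Sparc and Srm. Each of these list genes lost its call without line GSC_2, in a fit that leaves a single GSC line.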

How the data were processed

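RNA of 12 libraries from 6 mouse lines was sequenced by SC3-seq, with SOLiD sequencing per the labels' protocols. A single deposited table gives the authors' RPM, in which every library is scaled to a common total, for 26219 genes. Per the submitters' processing notes, cutadapt 1.3, TopHat 1.4.1, Cufflinks 2.2.0 and the build mm10 (GRCm38) were used, and the sources used here do not state whether strand was used in counting. The RPM totals of 999885 to 999962 hide depth, but low values lie on steps, of which 99.7% to 99.8% were whole within 0.1 of a read. A few values below 1 read did not lie on them, so no count test was run, and the implied reads serve to describe precision. Between replicates of a line a chi-square statistic of 3.95 to 8.45 per gene showed more than counting noise, so none was treated as a duplicate. The labels call the replicates biological replicates of the culture.

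The filter kept genes reaching 5 RPM in 2 or more libraries, and these were tested on log2(RPM + 1) with limma 3.58.1 in R 4.3.3, with trended variances. Kinds of line were compared over line means, 4 against 2, and conditions over line means in a fit with all 3 groups. Lines were compared over libraries, where p-values rest on culture replicates. All p-values are two-sided, with Benjamini-Hochberg adjustment and a threshold of 0.05. The fits were tested on simulated data. Alternatives were pseudocounts, filters, quantile normalization, a common prior variance, single replicates, left-out libraries and lines, a random line effect and a replicate block. The factors, gene lists and tests were chosen with earlier results of these data known. From each list, the called genes, at most 6, were named, or with none the 2 of highest mean RPM; for the 4 factors with the widest range of line means, the 3 most correlated genes were named. Overlap of the last 300 bases with other genes was checked for all named genes but Gm5634 and Gm8203. No columns were left out.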

Additional observations from a re-analysis of the deposited data

Results flagged for a closer look

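Among 53 genes checked over the 4 GSCLC line means, 4 had 1 line set apart from the other 3 by Dixon's criterion (0.829), and chance marks about 1 in 20 such groups. Nanog had a mean of 0 RPM in GSCLC_1 against 0.125 to 0.141 RPM in the others, a difference of 1 read per line. Srm, the spermidine synthase gene, stood at 107 RPM in GSCLC_3 against 96.1 to 96.2 RPM. Bcl6b was lowest in GSCLC_2 with 67.4 RPM against 78.6 to 79.5 RPM, and Dazl highest in GSCLC_4 with 1536 RPM against 1377 to 1401 RPM. In Srm and Bcl6b the 3 other means lie within 1 RPM of each other, so a small gap sufficed.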

How the results depend on the processing

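Of 28 alternatives each, Pou5f1 passed in 24 and Tcl1 in 27 for GSCLC against GSC lines. With no filter, 43 genes were higher and 99 lower, 1 factor was lower, 0 genes differed between the GSC lines, 458 among GSCLC lines and 4428 gene and pair combinations. With one common prior variance, 132 genes and 1 factor were lower, 1 gene differed between the GSC lines, 461 among GSCLC lines and 5364 in pairs. Replicate 1 libraries alone gave 46 higher and 68 lower genes, and replicate 2 libraries alone 72 and 106, with 1 gene called between conditions. With a random line effect 310 genes were higher and 335 lower, and 1 factor, Utf1, was higher. With the replicate number as a block, 285 were higher and 307 lower, and no call of a factor changed. Over 15 pairs of lines, the correlation of same-numbered deviations across all tested genes was -0.12 to 0.11, over 0.1 in 2. Such values show no pairing of the libraries by number for genes as a whole, but do not settle it for single genes. Leydig marker sums followed the number in both GSC lines, at 75.6 and 109 RPM in replicate 1 and 12.1 and 11.7 RPM in replicate 2. In the GSCLC lines they did not. Sertoli sums were higher in replicate 1 of every line but GSCLC_1, at 94.2 and 36.8 RPM in GSC_1 and 145 and 39.0 RPM in GSC_2. Fibroblast and feeder sums were higher in replicate 2 of every line but GSC_1. In GSCLC_1 to GSCLC_4 these were 551.5 and 721, 487 and 640, 602 and 806, and 659 and 837 RPM. What lies behind these orders was not tested. Leaving out libraries or lines in turn gave 11 to 256 higher and 2 to 277 lower genes, 0 to 1 higher and 0 to 2 lower factors, 0 to 9 genes between the GSC lines, 0 to 11 between conditions, 710 to 1162 genes and 4 to 5 factors among GSCLC lines, and 5856 to 9794 in pairs.

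Several differences that never passed changed sign. With libraries or lines left out in turn, Esrrb ranged from -0.11 (without line GSC_2) to 0.45 between kinds, and Pou5f1 from -0.33 (without GSC_1 replicate 2) to 0.78 between the GSC lines. Between conditions the ranges were -0.48 to 0.10 for Lin28a, -0.28 to 0.86 for Myc, -0.27 to 0.17 for Mycn, -1.66 to 0.68 for Sox2, -0.68 to 0.067 for Tcl1 and -0.69 to 1.12 for Utf1, where the ends of changed sign came without GSCLC_4, GSCLC_4, GSCLC_4 replicate 2, GSCLC_2, GSCLC_3 and GSCLC_2. Between conditions, Lin28a also came to 0.18 and Mycn to 0.055 with replicate 1 only, Myc to -0.18 and Utf1 to -0.067 with replicate 2 only, and Mycn to 0.015 with quantile normalization. The cause of these changes was not tested. Depth limits Nanog, Esrrb and, in condition 2, Pou5f1.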
